A study of Helicoverpa armigera with 6 samples.

Results

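The genes examined here are the long-span genes of *Helicoverpa armigera*, the cotton bollworm. They are the annotated genes whose start and end on the scaffold lie at least 60000 bases apart and whose level reached at least 0.5 FPKM in 3 or more of the 6 libraries. FPKM are fragments on a gene scaled to its length and to a divisor set for each library. Of the 18203 identifiers in the deposited table, 17082 were annotated genes, 319 of these spanned 60 kilobases or more, and 248 of the 319 passed the filter. The 71 long-span genes that did not pass had a median of 0.134 FPKM over the 6 libraries, and 2 of them were at 0 in every library.

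The study compared whole final-instar larvae injected just after the molt with siHDAC3, a small interfering RNA against the larva's own HDAC3, and larvae injected in the same way with siNC, a small interfering RNA directed at a gene of the nematode *C. elegans*. There were 3 RNA-seq libraries in each group. The sources used here do not give the number of larvae in a library or the time from injection to collection, so the p-values measure the spread between these libraries alone. Because whole larvae were sequenced, fewer cells of a type and less RNA per cell cannot be told apart.

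HDAC3 is a histone deacetylase. It removes acetyl groups from histone tails as part of the NCoR/SMRT corepressor complex, and it is generally linked to repression of transcription. The span of an animal gene is set mostly by its introns, which are transcribed together with the exons and then spliced out, so a long-span gene takes longer to transcribe than a compact gene with an mRNA of the same length. In insects such as *Drosophila*, genes with long introns include many that encode developmental regulators, cell adhesion molecules and ion channels. The identifiers come without gene names, and none of the long-span genes could be matched by name to the RefSeq gene table (assembly ASM3070526v1), so no role is given to any gene below. HDAC3 itself, and markers of larval tissues, could not be looked up for the same reason.

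The libraries held between 10084667 and 12389053 fragments on genes. The deposited values carry a scaling made by the authors. Their divisors ranged from 7751255 to 9717215 for siNC and from 11829387 to 16787229 for siHDAC3, where the largest, in siHDAC3 replicate 1, was 1.61 times the fragments of that library. The long-span genes took from 1.59% to 2.77% of the fragments in the siNC libraries and from 1.98% to 3.39% in the siHDAC3 libraries, so the groups overlapped in this share. The median long-span gene rested on 148, 231.5 and 149.5 fragments in siNC replicates 1, 2 and 3 and on 395, 251.5 and 303.5 in siHDAC3 replicates 1, 2 and 3.

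In most long-span genes, most of the span was not counted as exon. Their spans ran from 60200 to 284095 bases, with a median of 76823. The gene length of the table, which is used for FPKM, was taken as the summed length of exons. It never exceeded the span, but at spans this long that does not show that it is exon length. This gene length ran from 207 to 52363 bases with a median of 4117. It made up a median of 5.01% of the span, and less than 10% in 208 of the 248 genes. At one end, a gene of 83062 bases had 63.0% of its span in gene length. At the other, a gene of 62469 bases had 0.331%. The long-span genes lay on 148 scaffolds, at most 7 on any of them, with 125 on the plus strand and 123 on the minus strand. Among annotated genes of shorter span, 60.7% passed the filter on low values, against 77.7% of the long-span genes, while the median level of those that passed was 5.66 FPKM for long-span genes and 9.04 FPKM for shorter-span genes.

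On either side of the span threshold, levels ranged widely. The 3 genes just inside spanned 60200, 60407 and 60413 bases and had means of 0.875, 59.2 and 3.03 FPKM in siNC and 0.863, 99.0 and 3.63 FPKM in siHDAC3. The 3 tested genes just outside spanned 59956, 59881 and 59707 bases. Their means were 4.10, 10.3 and 20.8 FPKM in siNC and 0.00508, 19.9 and 12.3 FPKM in siHDAC3.

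The long-span genes were called changed about as often as other genes. The comparison asks which genes differed between siHDAC3 and siNC larvae, and it was made with limma on log2(FPKM + 1) over all 11093 tested genes, calling a gene at a Benjamini-Hochberg adjusted p under 0.05. Of the 248 long-span genes, 13 (5.24%) were called higher in siHDAC3, where 4.04% of all tested genes were. A further 25 (10.1%) were called lower, where 11.1% of all tested genes were. Both the long-span genes and all tested genes had a median log2 change of -0.02. In 95 of the 248 genes (38.3%) the 3 libraries of one group lay entirely above those of the other, against 38.1% of all tested genes. At an unadjusted p under 0.05 there were 86 long-span genes (34.7%), against 31.2% of all tested genes. Of the 248 genes, 7 reached 0.5 FPKM in siNC libraries alone and 1 in siHDAC3 libraries alone. Such genes passed the filter only through the group where they were high, and 4 of the 7 were called lower. Without these 8 genes, 13 of 240 were called higher and 21 lower, or 14.2% in all, against 12.6% of all tested genes restricted in the same way.

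**Figure D1:**
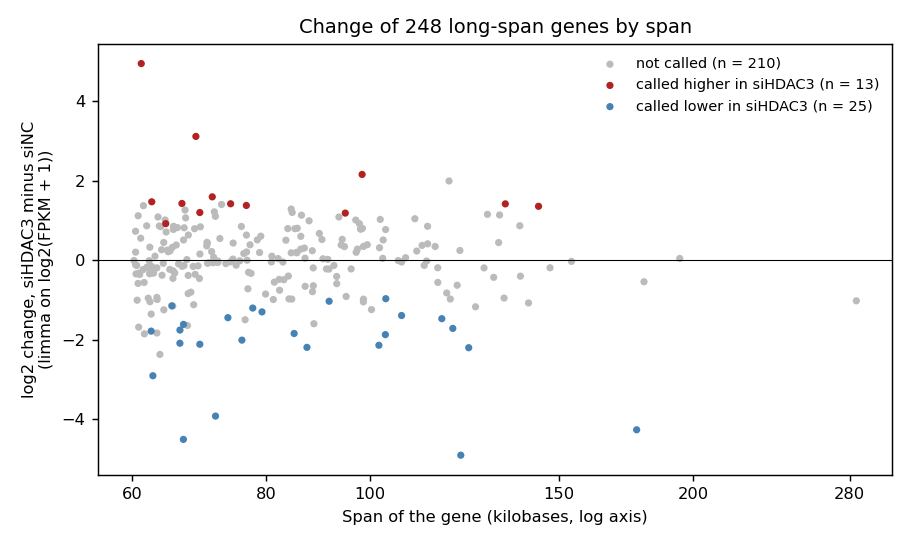
Each point is 1 of the 248 long-span genes. The horizontal axis is the span in kilobases on a log scale, and the vertical axis is the log2 change from limma, with genes called higher in red and lower in blue. The 13 higher genes reach a span of 143546 bases and the 25 lower genes one of 177223 bases, and the gene of longest span, at 284095 bases, was not called.

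The balance of higher and lower calls rests on the scaling between libraries. When every library was instead brought to the same total FPKM, the median over all tested genes moved to 0.68 and the median over the long-span genes to 0.66 on the log2 scale. Then 58 long-span genes (23.4%) were called higher and 14 (5.65%) lower, against 25.9% and 8.31% of all tested genes. All 13 genes called higher with the deposited values were among the 58, and 13 of the 25 called lower were among the 14. In every fit tried, the 13 kept an estimated change above 0 and the 25 one below 0. The number of calls also rests on single libraries. The 13 higher calls became 1, 6 and 1 without siNC replicates 1, 2 and 3, and 5, 12 and 1 without siHDAC3 replicates 1, 2 and 3. The 25 lower calls became 15, 16 and 11 without siNC replicates 1, 2 and 3, and 19, 18 and 10 without siHDAC3 replicates 1, 2 and 3. Only 1 of the 13 and 9 of the 25 were called whichever library was left out. The shares of all tested genes fell too, from 4.04% higher and 11.1% lower. Without siNC replicates 1, 2 and 3, the higher share was 1.84%, 2.42% and 1.13% and the lower share 8.37%, 9.76% and 5.98%. Without siHDAC3 replicates 1, 2 and 3, the higher share was 3.22%, 3.77% and 1.51% and the lower share 8.28%, 9.82% and 6.21%. Of the long-span genes, 0.403% were called higher without siNC replicate 3.

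The 13 long-span genes that rose had a median level of 11.2 FPKM over the 6 libraries, against 5.41 FPKM for the 210 not called. Being called higher in itself favours a low level in siNC. Their mean in siNC ran from 0.657 to 50.8 FPKM, with a median of 3.13, and their mean in siHDAC3 from 3.51 to 97.3 FPKM, with a median of 16.4. Log2 changes ran from 0.92 to 4.95 around a median of 1.42, with 3 of them at least 2. Their spans ran from 61148 to 143546 bases, and they lay on 13 scaffolds. Among the siHDAC3 libraries, replicate 1 gave the highest value in 9 of the 13 and replicate 2 the lowest in 8. This order was not particular to them. Of the 210 long-span genes not called, replicate 1 was highest in 105 and replicate 2 lowest in 94. Replicate 1 is also the library with the largest divisor relative to its fragments, and the part of the scaling in this order was not tested.

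HaOG201636 rose most. It spans 61148 bases on scaffold KZ149799.1, from 720672 to 781820 on the minus strand, with a gene length of 1538 bases, so 2.52% of the span. Its level was 1.09, 1.61 and 0.883 FPKM in siNC replicates 1, 2 and 3 and 45.4, 91.3 and 70.1 FPKM in siHDAC3 replicates 1, 2 and 3. Every siHDAC3 library was thus far above every siNC library, on 1173 to 1661 fragments against 11 to 24. The mean went from 1.19 ± 0.372 to 68.9 ± 23.0 FPKM (SD, n = 3 each), a 57.8-fold rise. This is a log2 change of 4.95 with a standard error of 0.33 (limma, adjusted p = 0.000528), and it was called with any library left out. A 447-base identifier on the same strand lies inside its span and had no fragment in any library.

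HaOG203723 had the next largest rise. It spans 68762 bases on scaffold KZ149937.1, from 170299 to 239061 on the plus strand, with a gene length of 3471 bases. Its level was 1.26, 0.474 and 1.39 FPKM in the siNC libraries and 39.6, 4.90 and 20.8 FPKM in the siHDAC3 libraries. The groups did not overlap, but siHDAC3 replicates 1 and 2 lay far apart. This is a log2 change of 3.12 with a standard error of 0.70 (limma, adjusted p = 0.0318). The adjusted p was 0.0767, 0.0864 and 0.0927 without siNC replicates 1, 2 and 3, and 0.0567 and 0.105 without siHDAC3 replicates 1 and 3, so the call was lost in each of these fits. It was also lost with limma voom on fragments and the deposited divisors (adjusted p = 0.0835) and with all genes above 0 tested (adjusted p = 0.0538).

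The 25 long-span genes that fell covered a wider range of levels. Their mean in siNC ran from 2.77 to 1219 FPKM, with a median of 8.38, and their mean in siHDAC3 from 0.0882 to 86.7 FPKM, with a median of 1.56. Log2 changes ran from -4.91 to -0.97 around a median of -1.85, with 11 of them at least 2 in size. Their spans ran from 62463 to 177223 bases, with a median of 79255, and they lay on 24 scaffolds. The 3 siHDAC3 libraries shared out the highest value as 12, 8 and 5 genes for replicates 1, 2 and 3.

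**Figure D2:**
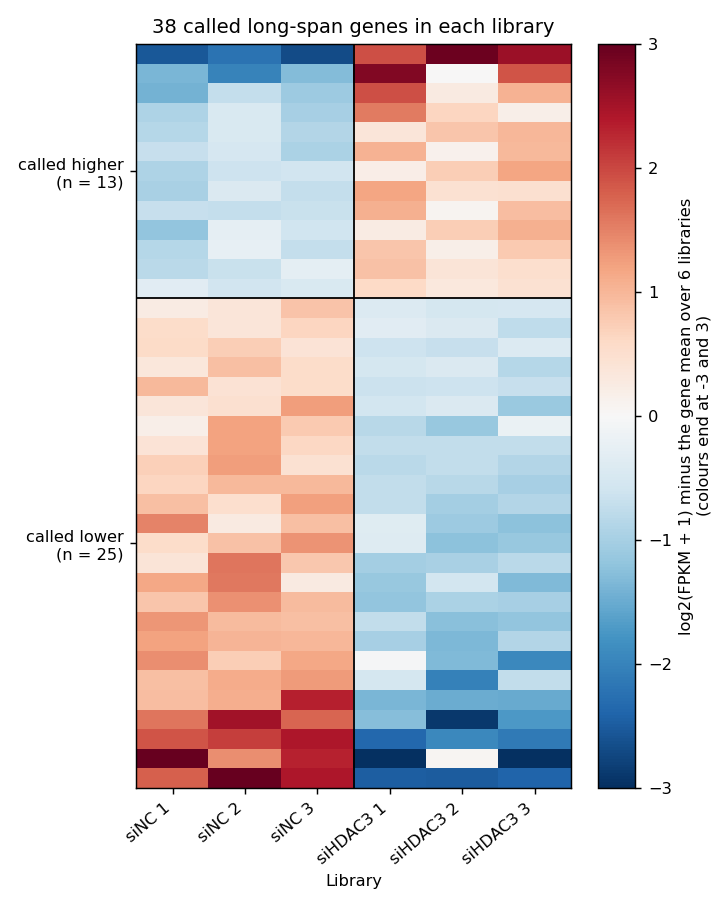
Rows are the 38 called long-span genes, ordered by log2 change, and columns are the 6 libraries. Colour is log2(FPKM + 1) minus the mean of the gene over the 6 libraries. In the 13 genes called higher the siHDAC3 columns are redder than the siNC columns, most often in siHDAC3 replicate 1, the highest of its group in 9 of them, and in the 25 called lower they are bluer. Replicate 1 was also the highest of its group in 105 of the 210 long-span genes not called, which are not shown.

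HaOG214794 fell most. It spans 121469 bases on scaffold KZ149863.1, from 588303 to 709772 on the minus strand, and its gene length of 26622 bases made up 21.9% of the span. Its level was 43.9, 112.2 and 68.9 FPKM in the siNC libraries and 1.32, 1.31 and 1.44 FPKM in the siHDAC3 libraries. The siHDAC3 libraries lay close together, while the siNC libraries differed among themselves. The mean went from 75.0 ± 34.5 to 1.36 ± 0.0754 FPKM (SD, n = 3 each), a 55.3-fold fall. This is a log2 change of -4.91 with a standard error of 0.37 (limma, adjusted p = 0.000693), and the call held with any library left out. Even at the low level the gene was counted on 411 to 591 fragments.

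HaOG207265 fell by 4.51 on the log2 scale with a standard error of 1.01 (limma, adjusted p = 0.0310). It spans 66941 bases on scaffold KZ150028.1, from 42064 to 109005 on the minus strand, with a gene length of only 774 bases. Its level was 395, 122 and 234 FPKM in the siNC libraries and 2.39, 47.8 and 4.83 FPKM in the siHDAC3 libraries. The groups did not overlap, although siHDAC3 replicate 2 stood well above the other siHDAC3 libraries. The call was lost without siNC replicate 1, 2 or 3 (adjusted p = 0.0915, 0.0542 and 0.103), without siHDAC3 replicate 1 or 3 (adjusted p = 0.0648 and 0.104), and with all genes above 0 tested (adjusted p = 0.0505).

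**Figure D3:**
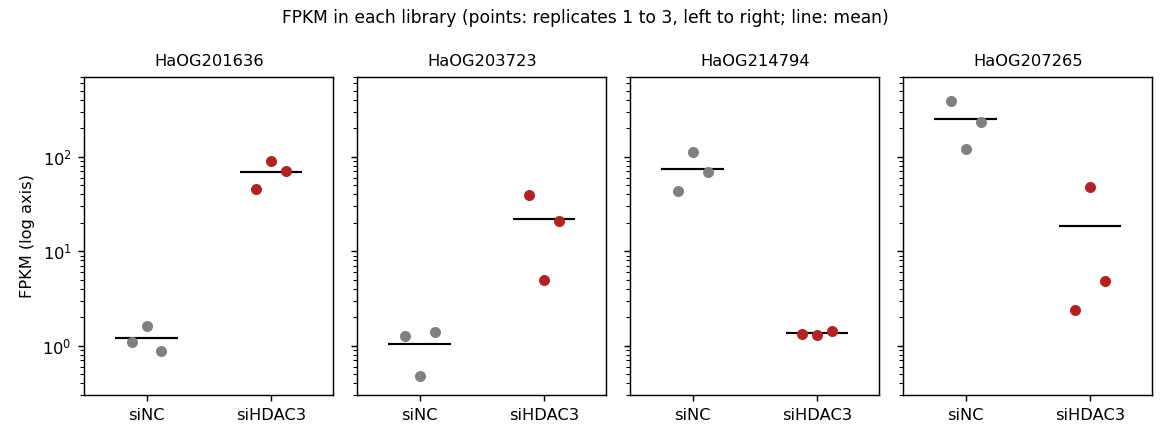
FPKM on a log axis in each of the 3 siNC (grey) and 3 siHDAC3 (red) libraries for the long-span genes with the largest rises and falls, with a line at the group mean. HaOG201636 and HaOG214794 show widely separated groups, while the siHDAC3 points of HaOG203723 and HaOG207265 are spread from 4.90 to 39.6 and from 2.39 to 47.8 FPKM.

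The most abundant long-span gene was also among those that fell. It spans 177223 bases with a gene length of 4348 bases, and it was picked out here after its values had been seen. Its level was 1014, 1162 and 1481 FPKM in the siNC libraries and 52.6, 71.2 and 61.9 FPKM in the siHDAC3 libraries. All siHDAC3 libraries were thus well below all siNC libraries, by 19.7-fold in the means. This is a log2 change of -4.27 with a standard error of 0.23 (limma, adjusted p = 0.000296), and the call held with any library left out.

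Several of the genes of longest span were not called. The gene of longest span, 284095 bases, had 1.89, 4.30 and 4.40 FPKM in the siNC libraries and 0.892, 1.84 and 0.835 FPKM in the siHDAC3 libraries, and was not called (log2 change -1.02 with a standard error of 0.36, limma adjusted p = 0.108), although its groups did not overlap. HaOG208614 spans 194398 bases on scaffold KZ149826.1, from 1145274 to 1339672. It had 4.49, 3.71 and 6.26 FPKM in the siNC libraries and 4.39, 5.47 and 4.90 FPKM in the siHDAC3 libraries, with a log2 change of 0.04 (standard error 0.28). The siHDAC3 values lay within the range of the siNC values, although with limma voom on fragments and summed library sizes the gene was called higher (log2 change 1.00, adjusted p = 0.0390). HaOG206756, on scaffold KZ150010.1 from 156164 to 336203, had 14.3, 13.0 and 9.81 FPKM in siNC and 7.66, 6.41 and 10.7 FPKM in siHDAC3 (log2 change -0.54 with a standard error of 0.29). HaOG204301, on scaffold KZ149948.1 from 116338 to 270416, had 0.765, 1.75 and 0.863 FPKM in siNC and 0.870, 1.09 and 1.18 FPKM in siHDAC3 (log2 change -0.03 with a standard error of 0.27). For HaOG208614, HaOG206756 and HaOG204301 the groups overlapped. With limma on the deposited values, no difference was detectable in them beyond the spread of the libraries.

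The most abundant long-span genes among those with an unadjusted p of 0.05 or more differed in how far their libraries lay apart. HaOG206619, on scaffold KZ149819.1 from 148317 to 213774, had 398, 431 and 555 FPKM in siNC and 271, 494 and 274 FPKM in siHDAC3, and its groups overlapped through siHDAC3 replicate 2. HaOG205660, on scaffold KZ149982.1 from 175409 to 238643, had 204, 154 and 139 FPKM in siNC and 40.6, 137 and 110.3 FPKM in siHDAC3. Its groups were separate by the narrow step from 139 to 137 FPKM. HaOG207086, on scaffold KZ150023.1 from 93742 to 168236, had 67.0, 116 and 113 FPKM in siNC and 215, 88.3 and 114 FPKM in siHDAC3, with siHDAC3 replicate 1 the highest of all libraries. Their log2 changes were -0.46, -0.94 and 0.43 with standard errors of 0.30, 0.47 and 0.40.

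The extremes of spread among the long-span genes were picked out after the values had been seen. The steadiest was HaOG216478, which spans 127694 bases. It had 27.6, 29.6 and 26.5 FPKM in siNC and 23.4, 26.5 and 23.1 FPKM in siHDAC3, a ratio of 1.28 between its highest and lowest library, with every siHDAC3 library just below every siNC library. The widest spread within the siHDAC3 group was that of HaOG202875, which spans 118438 bases. Its siNC libraries were close together at 11.5, 10.2 and 12.9 FPKM, while its siHDAC3 libraries were at 3.54, 268.9 and 99.3 FPKM. With siHDAC3 libraries both below and above all siNC libraries, it was not called (limma adjusted p = 0.380), although its siHDAC3 mean was 10.8 times its siNC mean. In all, 36 of the 248 long-span genes (14.5%) stayed within a 2-fold range over the 6 libraries, against 18.7% of all tested genes. Another 53 (21.4%) had a range of over 10-fold or a library at 0, against 30.7% of all tested genes and 22.7% of the shorter-span genes of like level and length described next.

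All tested annotated genes of shorter span had a median gene length of 1511 bases and a median level of 9.04 FPKM. The long-span genes differed from them in both medians, so they were set beside shorter-span genes that were alike in both. For each long-span gene, all tested annotated genes of shorter span were taken that lay within 0.5 log2 units in mean log2(FPKM + 1) and within 0.5 log2 units in gene length, with the same weight for each long-span gene. This gave 8600 comparable genes for 244 of the 248, with a median of 257 per gene. Their median gene length was 3875 bases and their median level 5.88 FPKM, against 4117 bases and 5.66 FPKM for the long-span genes, while their median span was 12165 bases. Of the comparable genes, 4.88% were called higher and 9.62% lower, against 5.33% and 9.84% of the 244 long-span genes. The median log2 change was 0.07 for the comparable genes and -0.02 for all 248 long-span genes, a difference of -0.09. A related measure is the difference of median log2(FPKM + 1) between long-span and comparable genes within a library. It was -0.16, 0.01 and 0.10 in siNC replicates 1, 2 and 3. In siHDAC3 replicates 1, 2 and 3 it was 0.23, 0.03 and -0.002. Between replicate libraries of a group it varied with an SD of 0.13. The siHDAC3 libraries were not lower as a group in this measure, so the sign of the -0.09 rests on the measure taken. No test of these differences was made, because genes are not replicates of a condition.

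The median spread between the siHDAC3 libraries was wider for long-span than for comparable genes, while between the siNC libraries it was close to equal. The median SD of log2(FPKM + 1) between the siHDAC3 libraries was 0.41 for the long-span genes, 0.32 for the comparable genes and 0.38 for all tested genes. Between the siNC libraries it was 0.29, 0.30 and 0.36. Fewer long-span genes (14.5%) than comparable genes (22.6%) stayed within a 2-fold range. The library that was highest differed as well. In siHDAC3 replicate 1, 78 of the 248 long-span genes (31.5%) had their highest value of the 6 libraries, against 26.8% of the comparable genes and 21.4% of all tested genes. In siNC replicate 1, 27.0% of the long-span genes had their lowest value, against 17.2% of all tested genes. This share was not counted for the comparable genes, so the part of level and gene length in it is not known. These shares are descriptions of 6 libraries and were not tested.

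**Figure D4:**
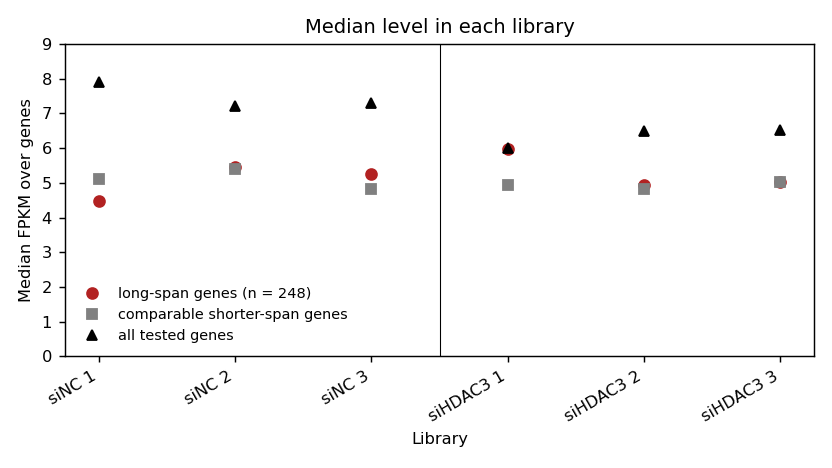
Median FPKM in each library over the 248 long-span genes (circles), the comparable shorter-span genes (squares) and all tested genes (triangles). The long-span median is 4.48 FPKM in siNC replicate 1, the lowest, and 5.98 FPKM in siHDAC3 replicate 1, the highest, and the other libraries of both groups lie between 4.93 and 5.44 FPKM.

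Across all tested annotated genes, the shares called were counted by class of span. Below 5 kilobases, 3.83% of 5117 genes were called higher and 11.3% lower. From 5 to 10 kilobases the shares were 3.92% and 12.9% of 2166 genes, from 10 to 20 kilobases 4.36% and 10.6% of 1696, from 20 to 40 kilobases 4.78% and 11.6% of 899, and from 40 to 60 kilobases 6.67% and 10.7% of 300. The share of lower calls thus moved between 10.1% and 12.9% with no steady direction. The share of higher calls grew with each class up to 40 to 60 kilobases and was lower again, at 5.24%, from 60 kilobases on, and this order was not tested. The median size of the log2 change was between 0.54 and 0.59 in every class.

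**Figure D5:**
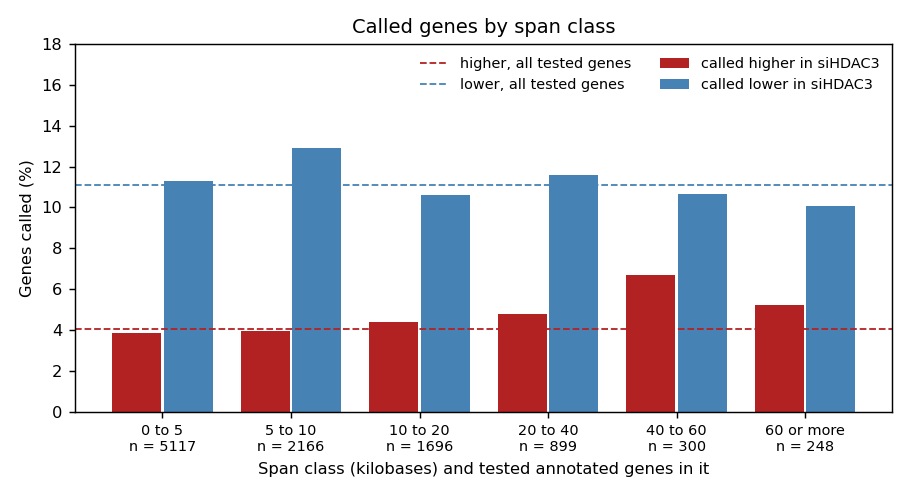
Bars give the percent of tested annotated genes in each class of span, in kilobases, that were called higher (red) or lower (blue) in siHDAC3, and dashed lines give the same over all tested genes, 4.04% and 11.1%. The class of 60 kilobases or more lies at 5.24% higher and 10.1% lower.

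Within the long-span genes, the calls were counted by span. From 60 to 80 kilobases, 9 of 134 genes (6.7%) were called higher and 13 (9.7%) lower. From 80 to 100 kilobases it was 2 (3.1%) and 3 (4.7%) of 64. From 100 kilobases on, 2 of 50 (4%) were called higher and 9 (18%) lower, beside 4.04% and 11.1% of all tested genes. In this last class the share of higher calls was close to that of all genes, and the share of lower calls was above it. The median size of the log2 change was 0.56, 0.57 and 0.80 in these classes. The last class holds few genes, and neither its share of lower calls nor its larger median size was tested. By level, 8.77% of the 57 long-span genes under 2 FPKM were called, 14.9% of the 101 from 2 to 10 FPKM, 19.4% of the 72 from 10 to 50 FPKM and 22.2% of the 18 at 50 FPKM or more. Over all tested genes, the shares in the same classes of level were 6.51%, 11.2%, 16.8% and 31.7%.

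Other genes lay inside many of the long spans. In 58 of the 248 genes, 74 identifiers of the table lay wholly within the span, 26 on the same strand and 48 on the opposite strand, and 71 of the 74 were annotated genes. Only 22 of the 74 (29.7%) passed the filter on low values, and 3 of these 22 were called lower and none higher by limma, which is near the 11.1% and 4.04% of all tested genes. At these numbers no difference from all genes could be read. Just 1 pair of a called long-span gene and a called gene inside it was found. The long-span gene of this pair fell from 3.04 ± 0.999 to 0.174 ± 0.110 FPKM (SD, n = 3 each), with 1 to 6 fragments in the siHDAC3 libraries. No siHDAC3 library reached 0.5 FPKM, so it passed the filter only through siNC, the group where it was high. The gene inside it, on the opposite strand and with a higher mean of 66.3 FPKM, fell by 3.28 on the log2 scale. The sources used here do not say whether strand was used in counting, so reads of the 2 genes may not be told apart.

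Any overlap with another identifier was found for 80 of the 248 long-span genes, among them 7 of the 13 that rose and 10 of the 25 that fell. For none of the 7 was the overlapping identifier more abundant than the long-span gene. Only 2 of the 7 had an overlapping identifier that passed the filter, and neither was called higher with it. Of the 10 that fell, 6 had such a tested identifier, 2 overlapped a more abundant identifier, and 2 overlapped an identifier that was also called lower. Among the 168 long-span genes that overlapped nothing, 6 (3.57%) were called higher and 15 (8.93%) lower, against 4.04% and 11.1% of all tested genes.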

How the data were processed

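RNA-seq was analyzed from whole siNC and siHDAC3 larvae, with 3 libraries per group named by the sample titles. Columns headed CK and siHA5 were read as siNC and siHDAC3, because the series has these groups alone and the methods select siRNA-5. CK is not spelled out, which leaves this reading uncertain. FPKM per gene and library were deposited by the authors, together with gene length and scaffold position. The submitters' processing notes name Bowtie 0.12.2 with mouse builds, which cannot hold these scaffolds. The sources used here give no aligner, counter or build for the table itself. The kit is named differently in the labels and in the methods.

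FPKM multiplied by gene length gave whole multiples of 1 step per library for 100% of values above 0 (tolerance 0.1 fragments), which gave the fragments and divisors. Genes reaching 0.5 FPKM in 3 or more libraries were fitted on log2(FPKM + 1), which understates changes of low genes, with limma 3.58.1 (R 4.3.3), a variance trend and Benjamini-Hochberg adjustment over all 11093 genes. The procedure was run on simulated data with known changes and the same dispersion for every gene. That run checks the code and does not bear on the spread between these libraries. Replicates differed beyond sampling noise (chi-square per degree of freedom at least 74.3). The long-span genes, lists and rules were chosen with earlier results of these data known. Identifiers were named by rule: the 2 largest rises and 2 largest falls among called genes with groups that did not overlap and at least 5 FPKM in the higher group, and, among genes with an unadjusted p of 0.05 or more, the 3 of longest span and the 3 most abundant. Alternatives covered pseudocounts, filters, scalings, variance models, a replicate block, library weights, limma voom on fragments, single libraries left out, thresholds, spans and windows.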

Additional observations from a re-analysis of the deposited data

Results flagged for a closer look

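Some long-span identifiers outside the main comparison had a signal above the control libraries. Of the 71 annotated long-span genes below the filter, 2 had every siHDAC3 library above every siNC library, at 0.310 to 0.988 FPKM (19 to 63 fragments) against at most 0.244 FPKM (18 fragments), and 3 showed the reverse. Among all tested genes, which passed the filter, 16.5% lay above and 21.6% below in this way. Those genes are mostly of higher level, so the shares are not like for like and the counts were not judged against them. Of 7 transcripts outside the annotation that span 60 kilobases or more, 1 had 0.971, 0.459 and 0.564 FPKM in siHDAC3 and 0, 0.280 and 0.335 FPKM in siNC, on 2 to 6 fragments against at most 1. Another of the 7 lay lower in every siHDAC3 library than in any siNC library, at 3.47, 3.47 and 0.948 against 19.4, 12.3 and 11.8 FPKM (log2 change -2.16, limma adjusted p = 0.0201). The 2 genes and the 1 transcript that lay higher were below the filter and were not tested.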

How the results depend on the processing

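The difference in median log2 change between long-span and comparable genes ran from -0.15 to -0.03 over the alternatives. Variance models and the block cannot move it, and a shift shared by all genes largely cancels in it. The counts moved. With libraries scaled to the sum of FPKM, 58 long-span genes were called higher and 14 lower, with a median log2 change of 0.66. With quantile normalization 24 were higher, with a median of 0.25. Of the voom fits, that with summed library sizes called 66 higher and 13 lower, at a median of 0.89. These scalings also moved the median of all tested genes, to 0.68, 0.27 and 0.90. Of all tested genes they called 25.9%, 9.09% and 24.1% higher and 8.31%, 9.17% and 6.93% lower. Library weights gave 28 higher (11.3%) and 45 lower (18.1%), beside 9.70% and 16.7% of all tested genes (cause not tested). At a threshold of 0.01, 1 was higher (0.403%) and 9 were lower (3.63%), beside 0.811% and 4.77% of all tested genes. Without a filter 7 of 317 were higher (2.21%), beside 2.01% of all genes tested in that fit. By construction, spans of at least 40000, 80000 and 100000 bases gave 33, 4 and 2 higher and 57, 12 and 9 lower. These were 6.02%, 3.51% and 4% higher and 10.4%, 10.5% and 18% lower, beside 4.04% and 11.1% of all tested genes. The 168 genes overlapping nothing, an alternative chosen after seeing the data, gave 6 higher and 15 lower.

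With 1 library left out, 1 to 12 were higher and 10 to 19 lower, and no called gene changed sign. Over all tested genes, 1.13% to 3.77% were then higher and 5.98% to 9.82% lower. Same-numbered libraries did not deviate together (correlations of -0.08, 0.07 and -0.01), so the numbers were not taken to pair them. With the replicate block, 2 were higher (0.806%) and 16 lower (6.45%), beside 1.60% and 7.69% of all tested genes. HaOG207265 was not called in that fit (limma adjusted p = 0.0704).

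Some changes that were not called turned sign. Under sum scaling, HaOG206756, HaOG204301 and HaOG206619 were at 0.29, 0.43 and 0.45, and under voom with summed library sizes at 0.34, 0.92 and 0.48. Under quantile normalization HaOG204301 and HaOG206619 were at 0.23 and 0.44, and under library weights HaOG208614 and HaOG204301 at -0.051 and 0.060. With 1 library left out, HaOG208614 ran from -0.10 to 0.22 and HaOG204301 from -0.15 to 0.17. One fragment on a gene of 1 kilobase was worth 0.0596 to 0.129 FPKM, so levels near the filter rested on few fragments in genes of short gene length.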
